A study of Thermothelomyces thermophilus ATCC 42464 with 4 samples.

Results

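The region described here is a stretch of chromosome 7 of the thermophilic fungus Myceliophthora thermophila, from 607001 to 708000 (assembly ASM22609v1), in which no gene is annotated. It was taken as the 500-bp windows of chromosome 7 between these coordinates, which gave 202 windows of the 77489 windows of the 7 chromosomes. The 50 kb on each side, 100 windows each, served as the surroundings and are called the lower side and the upper side after their coordinates. The borders came from an earlier reading of these same libraries, in which neighbouring windows between them had a higher methylation level in ΔlaeA than in the wild type (WT). The levels of the 4 libraries therefore chose the region, so every value below that sets ΔlaeA beside WT is a description and carries no test. Whole-genome bisulfite sequencing had been done on DNA from mycelium grown on glucose for 24 h, with 2 libraries of WT and 2 of ΔlaeA. In ΔlaeA the coding sequence of laeA was replaced by a selection marker cassette according to the study, while the genotype label of these libraries speaks of a knockdown. The labels do not say that the 2 libraries of a strain came from separate cultures, so the spread between them may be technical.

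In bisulfite sequencing an unmethylated cytosine is read as T and a methylated cytosine is still read as C, and the level of a cytosine is the share of its reads that stay C. Each library comes as a list of called cytosines, here called listed sites. Every listed site had a level of at least 0.05, at least 5 reads and at least 2 methylated reads. A cytosine that is not listed may be unmethylated, methylated below these limits or too thinly covered, and the lists do not separate these cases. A level below is pooled over listed sites, as methylated reads in percent of all their reads. It is higher than a level over every cytosine would be, since sites below the limits are left out. Series of 4 values always run in the order WT replicate 1, WT replicate 2, ΔlaeA replicate 1 and ΔlaeA replicate 2.

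DNA methylation in filamentous fungi is known best from Neurospora crassa, where it lies mostly in AT-rich repeats that were mutated by repeat-induced point mutation. In that fungus the DNA methyltransferase DIM-2 methylates cytosines in every sequence context and is guided by trimethylation of histone H3 at lysine 9. The contexts are CG, CHG and CHH, in which H stands for A, C or T. CG and CHG read the same on both strands, so that methylation can be symmetric there, while CHH has no such partner. LaeA is a putative methyltransferase known from Aspergillus as a global regulator of secondary metabolism.

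The run of listed sites was nearly without interruption and had sharp ends. At least 10 sites were listed in every library in 200 of the 202 windows, and these windows formed 1 unbroken run from 607501 to 707500. With 100000 bp it ranked 11 of the 473 such runs of the genome by length, and 2 of 45 on chromosome 7. Before the lower end no library listed a site between 600501 and 607000. The window from 600001 held 4, 2, 8 and 4 sites, at median depths of only 11.5, 10, 11 and 15 reads. The lists give no depth where no site is listed, so whether the empty stretch was covered was not tested. The first window, 607001 to 607500, held 4, 4, 2 and 3 sites. The next window, from 607501, already held 40, 49, 46 and 47 sites, at levels of 7.64%, 7.65%, 7.90% and 7.76%. At the upper end the window from 706501 held 111, 119, 116 and 101 sites, and the window from 707001 held 42, 54, 55 and 42. The window from 707501 held 0, 0, 0 and 1 site, and the 2 windows that followed held a site in ΔlaeA replicate 1 alone, 1 in each. By windows with at least 10 sites, both ends thus fell at the same place in all 4 libraries.

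The ends of the methylated stretch lay close to annotated genes. The nearest gene below was MYCTH_2071953, from 605934 to 606388, which ended 613 bp before the region. The nearest gene above was MYCTH_57823, from 709077 to 710301, which began 1077 bp after it. No gene function is given for either in the gene table used here. The interval between them measured 102688 bp and ranked 5 of 8826 intervals between neighbouring genes of the genome, whose median was 835 bp. On the lower side 14 genes were annotated and on the upper side 15. The 5 genes between the region and the next methylated stretch below it (MYCTH_2130517, MYCTH_2071285, MYCTH_2071504, MYCTH_2071514 and MYCTH_2071953) held 0 listed sites in all 4 libraries. Their depth is not given in the lists.

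The surroundings differed on their 2 sides. On the lower side 37 of 100 windows held at least 10 sites in every library, and all 37 lay in a second stretch from 581501 to 600000, which falls in a gene-free interval of 18664 bp. On the upper side no window held more than 3 sites in any library, and the whole side held 35, 25, 40 and 23 sites, at levels of 6.73%, 7.30%, 6.01% and 6.29%.

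**Figure D1:**
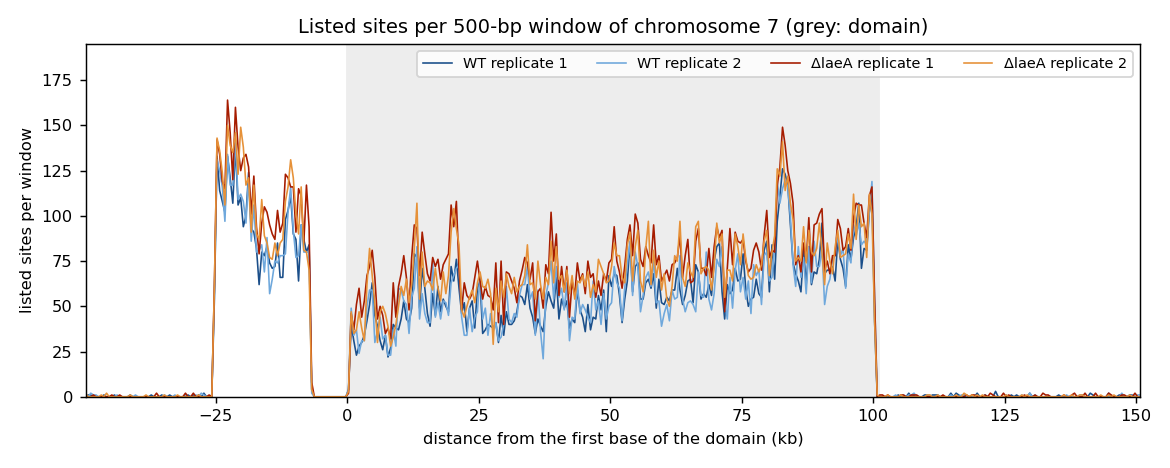
Number of listed sites per 500-bp window (vertical axis) against the distance from the first base of the region in kb (horizontal axis), with 1 line for each of the 4 libraries and the region in grey. Windows with at least 10 sites start and stop at the same place in every library, the richest window of the region held 149 sites in ΔlaeA replicate 1, and the upper side is almost empty.

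The lower end carried a very high depth. In the windows from 607001 to 608000 listed sites had a median depth of 1571, 1218, 1133 and 1159 reads. These depths were 28.6, 20.6, 20.2 and 24.7 times the median of the same library. Such deep windows held 44, 53, 48 and 50 sites, which is 0.321% to 0.451% of the sites of the region but 6.89% to 9.37% of its reads. The sites lay mostly on the reverse strand, where 39, 48, 41 and 42 of them were listed. Sites deeper than 5 times the library median numbered 49, 58, 51 and 55 in the region and 4, 4, 16 and 42 in the whole rest of the genome. The highest depth was 3880 reads in the region and 377 elsewhere in WT replicate 1, and the deep sites ended at 608055 at the latest. All 4 libraries thus shared the deep end. Reads from several copies of a sequence cannot be told apart from reads of this place in the lists. The level of the deep windows was 7.48%, 7.57%, 7.81% and 7.66%, and levels of the region are therefore also given without them. Away from the deep end the depth was ordinary, with a median at listed sites of the region of 57, 60, 58 and 49 reads.

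**Figure D2:**
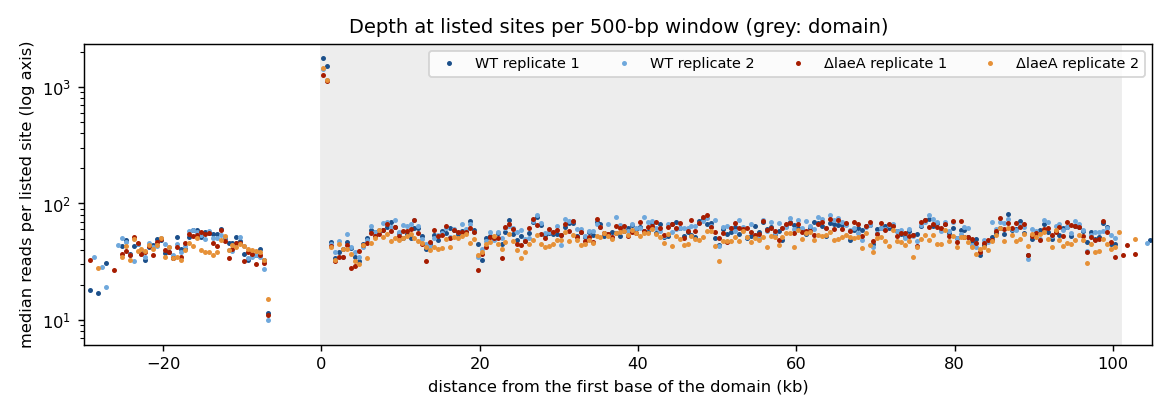
Median depth in reads at the listed sites of each 500-bp window (vertical axis, log scale) against the distance from the first base of the region in kb, for the 4 libraries. The deep windows at the lower end stand at 20.2 to 28.6 times the library median, and no other window of the region comes near them.

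Each ΔlaeA library listed more sites in the region than either WT library. The lists held 11645, 11763, 14960 and 14135 sites there. The mean was 11704 ± 83.4 for WT and 14548 ± 583 for ΔlaeA (SD, n = 2 each), which is 24.3% more. The groups did not overlap. The density was 115.3, 116.5, 148.1 and 139.95 sites per kb, and the median distance between neighbouring sites was 6, 6, 5 and 5 bp. Outside the region the libraries listed 2009053, 2032337, 2005677 and 1885432 sites, so that ΔlaeA replicate 2 had the fewest sites in the rest of the genome and more sites in the region than either WT library. Set against these totals, the region held 5.80, 5.79, 7.46 and 7.50 sites per 1000 sites elsewhere.

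The larger number of sites was spread over nearly the whole length. A window of the region held a median of 56 sites in each WT library, 73 in ΔlaeA replicate 1 and 67 in ΔlaeA replicate 2. Of the 200 windows with at least 10 sites in every library, 196 had a higher mean number of sites in ΔlaeA, 3 a lower one and 1 the same. Both ΔlaeA libraries exceeded both WT libraries in 155 of the 200 windows, and the reverse held in 0. Over the genome 8.19% of 20648 windows had both ΔlaeA libraries above both WT libraries and 29.8% had both below. Since the strains' contrast chose the region, these shares are background only.

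The levels of listed sites in the region were low and also lay apart between the strains. The pooled level was 9.99% in WT replicate 1 (Wilson 95% interval 9.92% to 10.06%) and 9.98% in WT replicate 2 (9.91% to 10.05%). In ΔlaeA it was 10.96% in replicate 1 (10.90% to 11.02%) and 11.14% in replicate 2 (11.07% to 11.21%). These intervals cover counting error only. The mean was 9.99% ± 0.0081 for WT and 11.05% ± 0.124 for ΔlaeA (SD, n = 2 each). The difference was 1.06 percentage points, which is larger than the spread between the libraries of a strain. Without the deep windows the levels were 10.25%, 10.22%, 11.19% and 11.46%.

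Site levels in the region were shifted upward in the ΔlaeA libraries, as they were on the lower side. Sites with a level of at least 20% numbered 759, 748, 1412 and 1469, which is 6.52%, 6.36%, 9.44% and 10.39% of the sites of each library. This share was 16.5%, 15.5%, 22.9% and 22.1% on the lower side and 23.7%, 23.6%, 22.8% and 23.7% in the rest of the genome. Sites of 10% to 20% made up 34.1%, 33.8%, 37.3% and 39.7%. On the lower side they made up 44.2%, 42.9%, 40.6% and 44.1%, and in the rest 39.0%, 38.7%, 38.5% and 40.3%. Sites under 10% made up 59.4%, 59.8%, 53.2% and 49.9%. On the lower side they made up 39.2%, 41.6%, 36.4% and 33.8%, and in the rest 37.3%, 37.7%, 38.7% and 36.0%. In the region sites under 10% numbered 6917, 7039, 7964 and 7059. There ΔlaeA replicate 2 was close to the WT libraries in these sites and far from them in sites of at least 20%. The median site level was 8.82%, 8.70%, 9.52% and 10%. Weakly supported sites differed between the libraries in the region and elsewhere alike. Sites listed on 2 methylated reads numbered 142, 163, 516 and 336 in the region and 25400, 27172, 63363 and 53140 in the rest of the genome. Their mean was higher in ΔlaeA by 179% in the region and by 122% in the rest. When these sites were left out, the region still held 22.2% more sites in ΔlaeA. Sites on at most 3 methylated reads numbered 2163, 1874, 2557 and 3731 in the region, with a mean 55.8% higher in ΔlaeA against 41.5% in the rest, and the number of sites was not counted again without them.

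Window levels kept their pattern along the region in all libraries. Among the 200 windows the level ranged from 7.16% to 16.5% and from 7.34% to 16.3% in the WT libraries, and from 7.90% to 18.2% and from 7.76% to 18.5% in the ΔlaeA libraries. The mean level of a window was higher in ΔlaeA in 194 of 200 windows and lower in 6, with a median difference of 1.11 percentage points. Over the genome the ΔlaeA mean was higher in 42.8% of 20245 windows. Both ΔlaeA libraries exceeded both WT libraries in 146 of the 200 windows, against 15.0% of windows over the genome. Both were below in 1 window of the 200, against 24.2% over the genome. Here too the rule used the contrast, and nothing is read from the counts.

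**Figure D3:**
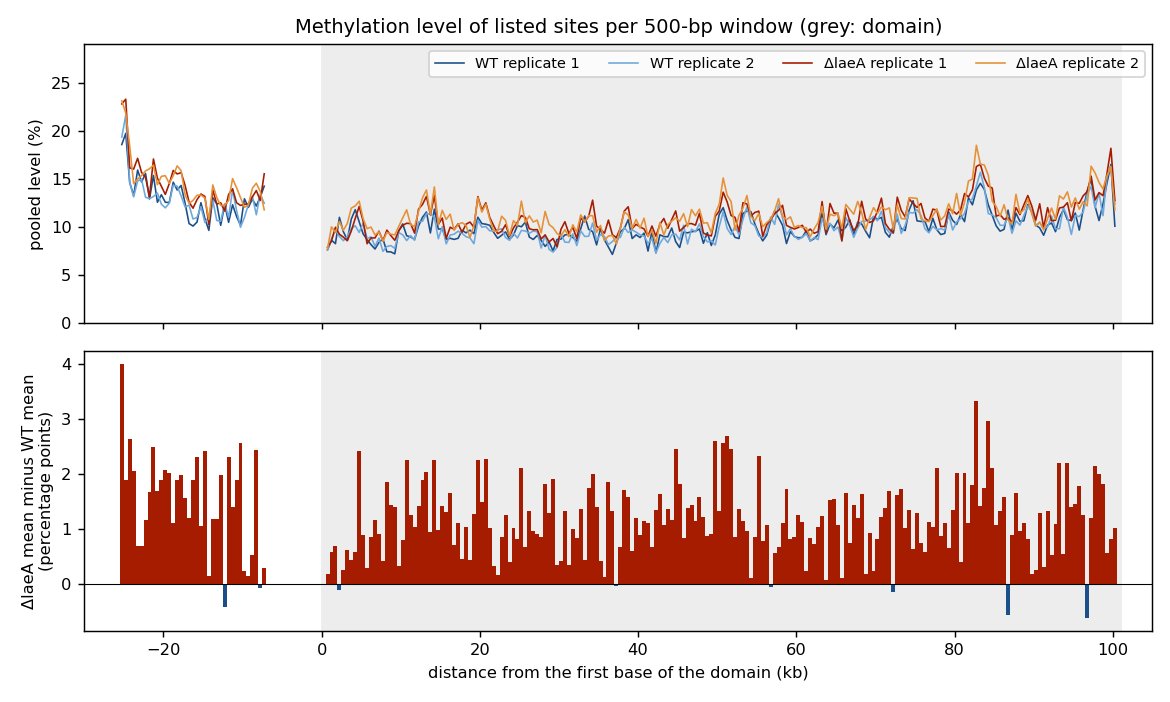
Pooled level of listed sites in percent per 500-bp window against the distance from the first base of the region in kb, with 1 line for each library (top), and the ΔlaeA mean minus the WT mean in percentage points as bars (bottom). The bars are above 0 in 194 of the 200 windows of the region that held at least 10 sites in every library.

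The windows with the largest differences lay in 2 places. The window from 689501 had levels of 13.9%, 14.3%, 16.3% and 18.5%, a difference of 3.32 percentage points, and its site counts were 126, 115, 149 and 141. The window from 691001 differed by 2.97 percentage points, with 12.3% and 11.4% in WT and 14.3% and 15.4% in ΔlaeA. The other windows among the 5 with the largest differences were close together, from 656501 (2.60 percentage points), from 657501 (2.56) and from 658001 (2.68). In each of these 5 windows both ΔlaeA levels were above both WT levels.

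The smallest differences were not gathered in 1 place. The window from 703501 differed by -0.61 percentage points, with 13.7%, 13.4%, 13.7% and 12.2%, so that the strains overlapped. The window from 693501 had 11.8% and 11.1% in WT and 10.96% and 10.7% in ΔlaeA, and it was the window in which both ΔlaeA levels were below both WT levels. The windows from 679001, 609001 and 663501 differed by -0.14, -0.10 and -0.04 percentage points and overlapped. In the window from 609001 the strains did not overlap in the number of sites, with 28, 24, 60 and 47 sites. The windows richest in WT sites were neighbours, from 689501, 690001 and 690501. The window from 690001 held 123, 120, 139 and 114 sites and overlapped between the strains. The window from 690501 held 117, 116, 125 and 122 sites and did not.

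All 3 contexts were listed in the region, with CHH far ahead. CHH sites numbered 9238, 9315, 11768 and 11081, with a mean 23.2% higher in ΔlaeA. CHG sites numbered 1228, 1210, 1510 and 1471, 22.3% more in ΔlaeA. CG sites numbered 1179, 1238, 1682 and 1583, 35.1% more in ΔlaeA. The counts did not overlap between the strains in any of the contexts. The share of CG among the sites was 10.1%, 10.5%, 11.2% and 11.2%. How many cytosines of each context the region has is not known here, so the shares of contexts are not shares of methylated cytosines.

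The level was higher in ΔlaeA in each context. In CHH it was 10.15%, 10.13%, 11.15% and 11.34%, a difference of 1.11 percentage points. In CHG it was 9.78%, 9.85%, 11.03% and 10.98%, a difference of 1.19. In CG, the context with the lowest level, it was 8.90%, 8.95%, 9.55% and 9.78%, a difference of 0.74. Per window, both ΔlaeA libraries listed more sites than both WT libraries in 143 of 201 windows for CHH, in 54 of 189 for CHG and in 85 of 194 for CG. Over the genome this held in 8.88%, 6.12% and 6.58% of windows. The reverse held in 1, 5 and 3 windows of the region, with 25.8%, 15.6% and 21.3% over the genome.

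**Figure D4:**
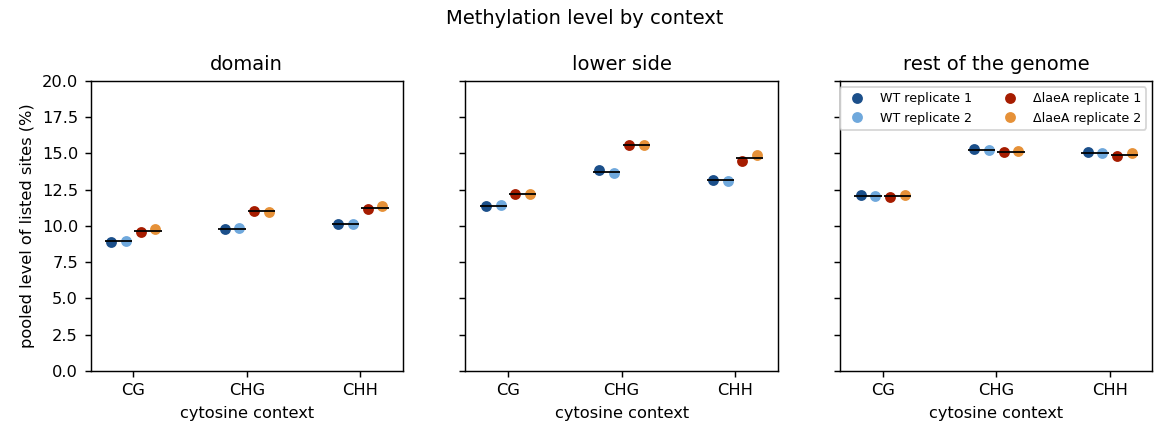
Pooled level of listed sites in percent for CG, CHG and CHH in the region (left), the lower side (middle) and the rest of the genome (right). Each of the 4 libraries has 1 point, and a black bar marks the mean of each strain. In the region both ΔlaeA points lie above both WT points in each context, with a mean difference of 0.74 in CG, 1.19 in CHG and 1.11 percentage points in CHH. They also do in the lower side, but in no context in the rest of the genome.

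Both strands took part. The forward strand held 5912, 5824, 7533 and 7124 sites and the reverse strand 5733, 5939, 7427 and 7011, with means 24.9% and 23.7% higher in ΔlaeA. The level was 10.21%, 10.27%, 11.15% and 11.37% on the forward strand and 9.79%, 9.73%, 10.78% and 10.91% on the reverse strand. The share of sites on the forward strand was thus close to even in the region as a whole, at 50.8%, 49.5%, 50.4% and 50.4%. Single windows were less even, and those with at least 10 sites in every library, 200 in all, ranged from 10.2% to 80%. Among these, at least 60% of sites were on the forward strand in all 4 libraries in 6 windows, and at most 40% in 8. The window from 607501, at the lower end, had the lowest share in each library, with 12.5%, 10.2%, 15.2% and 17.0%. At the upper end the window from 707001 had 31.0%, 35.2%, 20% and 26.2%. Strand shares of windows also recurred between libraries, with Pearson's r of 0.612 to 0.754 over 200 windows for the 6 pairs of libraries. These pairs share the base composition of each window.

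A part of the CG and CHG sites was listed on both strands. CG pairs with both cytosines listed numbered 175, 207, 314 and 271, which held 29.7%, 33.4%, 37.3% and 34.2% of the CG sites. In the rest of the genome the share was 51.6%, 52.3%, 51.2% and 48.7%. For CHG the share was 35.3%, 36.2%, 39.9% and 39.7% in the region and 49.5%, 49.7%, 49.3% and 47.9% in the rest. On the lower side it was 38.5%, 42.6%, 44.8% and 48.7% for CG and 37.8%, 39.9%, 44.0% and 45.5% for CHG, above the region in every library. The share in the region was below that of the rest in every library and in both contexts, which was not tested. The levels in the region were lower too, and their part in these shares was not tested.

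The sites of the region were listed in different sets of libraries. In all, 20900 sites of the region stood in at least 1 list, and 6325 sites (30.3%) stood in all 4, against 49.4% in the rest of the genome. Sites listed in no WT library numbered 5494, or 26.3%, against 11.1% in the rest. Sites listed in no ΔlaeA library numbered 2305, or 11.03%, against 13.0% in the rest. Both ΔlaeA libraries and no WT library listed 1400 sites, or 6.70% against 2.01% in the rest, at levels of 8.01% and 8.44%. Both WT libraries and no ΔlaeA library listed 343 sites, at 7.23% and 7.16%. These sites had lower levels than the region as a whole. On the lower side 39.2% of sites stood in all 4 lists, 20.1% in no WT list and 9.38% in no ΔlaeA list. Both ΔlaeA libraries and no WT library listed 5.52% of its sites. None of these shares was tested.

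At the 6325 sites listed in all libraries the same cytosines are compared in each. Their level was 11.68%, 11.84%, 14.01% and 13.92%. The difference of 2.21 percentage points was larger than the 1.06 percentage points over all listed sites. By context it was 2.19 percentage points over 482 CG sites, 2.03 over 653 CHG sites and 2.23 over 5190 CHH sites. Both ΔlaeA levels exceeded both WT levels at 2034 of the 6325 sites (32.2%) and were below both at 455 (7.19%), while over the genome this held at 15.0% and 19.0% of 1326747 sites. In the rest of the genome the level of shared sites was 17.83%, 17.89%, 17.50% and 17.26%, a difference of -0.48 percentage points. The same contrast chose the region, so this too is a description.

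The number of sites varied along the region. In segments of 10 kb the WT mean ran from 705 sites in the segment from 607001 to 1661 in the segment from 687001 and was 1631 in the last full segment, from 697001. The excess of sites in ΔlaeA was 31.5%, 33.7%, 33.5%, 31.4% and 31.6% in the 5 segments from 607001 to 657000. It was then 25.6%, 26.4%, 22.3%, 15.9% and 9.35% in the 5 segments up to 707000. The segments richest in WT sites thus had the smallest relative excess. In level the difference was 0.56 percentage points in the segment from 607001, which holds the deep windows, and between 1.01 and 1.38 in the full segments above it. The WT mean level was 7.99% in the segment from 607001 and 11.8% in the segment from 697001.

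**Figure D5:**
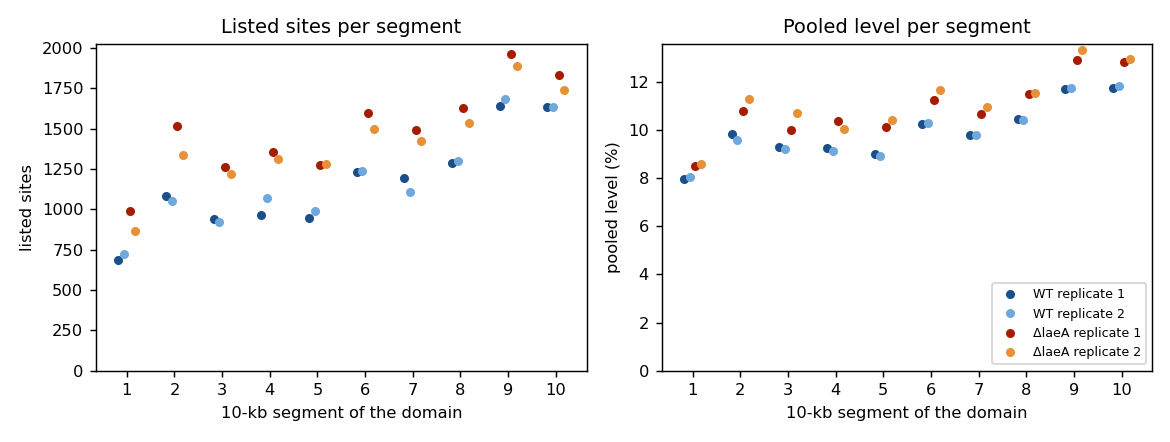
Listed sites (left) and pooled level in percent (right) of each full 10-kb segment of the region, by the number of the segment counted from the lower end, for the 4 libraries. WT mean site counts run from 705 in segment 1 to 1661 in segment 9, with falls between, and are 1631 in segment 10. The strains come closer in site number towards the upper end.

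Within a library, windows with more sites had higher levels. Over the 199 windows outside the deep windows, Pearson's r between the level and the number of sites was 0.794, 0.776, 0.799 and 0.735. Between the number of sites and the position it was 0.669, 0.644, 0.558 and 0.597. Between the level and the median depth it was -0.294, -0.312, -0.242 and -0.415. The windows of a library share its depth and neighbouring sequence, so these values describe the region and carry no p. The number of sites per window was close to that of the other libraries, with r of 0.856 to 0.896 for the 6 pairs, and the level gave 0.831 to 0.879. The pairs of libraries of the same strain lay inside these ranges.

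The stretch on the lower side, which the borders of the region leave out, differed between the strains in the same direction. The difference is thus not particular to the region. On the lower side it was 1.49 percentage points in level against 1.06 in the region, while the excess of sites was smaller than the region's 24.3%. The lower side held 3463, 3499, 4185 and 3972 sites, 17.2% more in ΔlaeA, at levels of 13.04%, 13.00%, 14.34% and 14.67%. Of its 37 windows with at least 10 sites in every library, 27 had both ΔlaeA levels above both WT levels and 1 had both below. The 27 windows are 73.0%, against 73% in the region and 15.0% over the genome. In 28 of the 37 windows both ΔlaeA site counts were above both WT counts, and in 0 below. The 28 windows are 75.7%, against 77.5% in the region and 8.19% over the genome. Its 2147 sites listed in all libraries had levels of 15.22%, 15.39%, 18.25% and 18.39%, a difference of 3.01 percentage points against 2.21 in the region. The stretch lies next to the region and was not chosen apart from it, and these counts also carry no test.

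The region was then compared with both sides pooled and with the rest of the genome. The choice by strain did not set the region beside them. It did take neighbouring windows that had a level, and it used the levels of these same libraries. The unit was the library, and the exact two-sided sign-flip permutation test over 4 libraries has 16 sign patterns. A difference shared by 4 of 4 libraries gets the smallest p it can give, that of 2 of the 16 patterns, so that no comparison could pass 0.05. After Benjamini-Hochberg adjustment over 20 comparisons this exact permutation p is 0.147. Nearly all sites of the sides lay in the lower stretch, 3446 of them in WT replicate 1 for example. The level over all contexts was 10.5% ± 0.618 (SD, n = 4) in the region and 13.7% ± 0.858 (SD, n = 4) in the sides. Each mean and SD over 4 libraries pools WT and ΔlaeA, which differ in level in both places, and strain did not enter the test. The region was lower in 4 of 4 libraries, with a mean difference of -3.19 ± 0.243 percentage points (exact permutation test, adjusted p = 0.147). With sides of 20 kb the mean difference was smaller, at -2.18 percentage points. In the rest of the genome the level was 14.6% ± 0.0974 (SD, n = 4), and the region was lower in 4 of 4 libraries, with a mean difference of -4.12 ± 0.680 percentage points (exact permutation test, adjusted p = 0.147). The pooled sides stand for the lower stretch, since the few sites of the upper side had levels below those of the region in every library.

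By context the region minus the sides gave -2.43 percentage points in CG, -4.18 in CHG and -3.17 in CHH. With sides of 20 kb all 3 were smaller, at -1.84, -3.12 and -2.08. The region minus the rest of the genome gave -2.79, -4.79 and -4.29, each in 4 of 4 libraries with the same adjusted exact permutation p of 0.147. CHG took a share of 10.3% ± 0.191 (SD, n = 4) of the sites of the region, 11.7% ± 0.286 of the sides and 9.46% ± 0.0666 of the rest, so the region lay below the sides and above the rest in every library. CHH took 78.9% ± 0.440 (SD, n = 4) in the region, which was above the sides in 4 of 4 libraries and above the rest in 2 of 4 (exact permutation p = 0.50, adjusted 0.526). Its difference from the sides was 1.22 percentage points, and 0.361 with sides of 20 kb (exact permutation p = 0.75). The CG share, 10.8% ± 0.543 (SD, n = 4), was below the rest in 4 of 4 libraries and above the sides in 2 of 4 (exact permutation p = 0.75, adjusted 0.75). Its mean difference from the sides was 0.103 percentage points, but -0.0998 without ΔlaeA replicate 1, 0.000206 without ΔlaeA replicate 2 and 0.847 with sides of 20 kb. The share of sites on the forward strand differed from the sides by -1.25 percentage points, lower in 4 of 4 libraries, and by -0.568 with sides of 20 kb (exact permutation p = 0.25). It was above the rest in 3 of 4 (exact permutation p = 0.50, adjusted 0.526). Windows with at least 10 sites made up 99.0% of the region, 18.5% of the sides and 26.2% of the rest. The choice of neighbouring windows with a level favoured a high share in the region, so nothing is read from this comparison. The depth relative to the library median was 1.03 ± 0.0111 (SD, n = 4) in the region and 0.789 ± 0.0773 in the sides, and its part in the levels was not tested.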

How the data were processed

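The authors deposited 1 list per library of called cytosines with counts of methylated and unmethylated reads, the level as a fraction, and a p-value and adjusted p-value of the call. The submitters' processing notes name FastQC 0.11.5 and Bismark 0.16.3; the labels describe paired-end sequencing of sonicated, bisulfite-treated DNA with a lambda DNA spike. A table of differentially methylated regions holds the authors' own comparison (mean levels per strain, their difference, an area statistic and the context) and was not used. Listed sites had median depths of 55 and 59 reads in WT and 56 and 47 in ΔlaeA. All value columns were mapped to a library.

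Counts were summed over 500-bp windows with Python 3.11.15, numpy 2.4.6 and pandas 2.3.3, and intervals are from SciPy 1.17.1. Window levels were compared where every library had at least 10 sites, site numbers where at least 1 library had 10, and context counts where at least 1 library had 3. Scripts were tested on simulated data. Tests were exact sign-flip permutations with Benjamini-Hochberg adjustment. Windows named in the text were the 5 largest and 5 smallest differences, the 3 with most WT sites and the 3 windows on either side of each end. Members and rules were chosen with earlier results of these data known. Gene coordinates are those of RefSeq for assembly ASM22609v1, with 9292 genes. The last listed site lay 1055 to 12690 bp beyond the last gene of each chromosome, and 3.35% of sites of WT replicate 1 lay inside genes, against 7.02% with genes shifted by 2000 bp. Alternatives were other limits on reads and sites, window sizes and positions, shared sites, the level relative to the same library elsewhere, sides of 20 kb, no deep windows, and leaving out each library.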

Additional observations from a re-analysis of the deposited data

How the results depend on the processing

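Of the alternative values, 2 changed sign and 8 differed by more than the spread between libraries, or 1.5 times for counts; the other 211 kept their direction and stayed within these limits or on the same side of the test's threshold, which no comparison over libraries could pass. At sites listed in all 4 libraries the difference in level between ΔlaeA and WT in the region was 2.21 percentage points over all contexts, 2.19 in CG, 2.03 in CHG and 2.23 in CHH. Relative to the level of the same library elsewhere it was 1.33 in CHG and 1.24 in CHH. With windows of 1 kb the windows with both ΔlaeA libraries above both WT libraries numbered 91 for levels and 89 for site counts, since there were 101 windows. No share over the genome is given for windows of 1 kb. The CG share of the region minus that of the sides was -0.166 percentage points with at least 3 methylated reads (exact permutation p = 0.50) and -0.0998 without ΔlaeA replicate 1, while it was 0.847 with sides of 20 kb, so neither its sign nor its size is fixed by these data. Sides of 20 kb also gave 0.361 percentage points for the CHH share (exact permutation p = 0.75) and -0.568 for the forward strand share (exact permutation p = 0.25), and the forward strand share minus that of the rest of the genome was 0.0454 to 0.451 when a library was left out.

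Leaving out each library in turn gave differences between ΔlaeA and WT of 0.975 to 1.15 percentage points in level over all contexts, 0.619 to 0.854 in CG, 1.16 to 1.22 in CHG and 1.01 to 1.20 in CHH. The excess of sites was 20.8% to 27.8%, and the CG share against the sides was -0.0998 to 0.290. Windows with both ΔlaeA libraries above both WT libraries cannot be checked by leaving out a library. The rule is then easier to meet, so the number of such windows cannot fall. No share over the genome is given for the looser rule. These window counts are among the values said above to keep their direction, and nothing is read from that. With 3 libraries the smallest exact permutation p is 0.25. No paired analysis was possible because the differences between ΔlaeA and WT come from no test to which a replicate number could be added; the comparison of the region with its sides is paired within each library. The windows at the lower end with a depth over 5 times the library median were left out as an alternative chosen after seeing the data.

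Unlisted cytosines limit all of these values: site numbers and levels move together with the limits of listing, and the depth of ΔlaeA replicate 2 was the lowest.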
